A study of Mus musculus with 12 samples.

Results

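The mitochondrial solute carriers are the products of the Slc25 gene family, and every gene whose symbol is Slc25a followed by a number was taken as a member. There were 47 such genes among the 24890 features listed, 1 locus each. RNA sequencing gave their transcript levels in 4 groups of 3 libraries from male C57BL/6J mice, 18 weeks old and fed normal chow. The groups were adipocytes of inguinal adipose tissue (IAT, a subcutaneous depot), adipocytes of epididymal adipose tissue (EAT, a visceral depot), stromal vascular cells (SVCs) of IAT, and SVCs of EAT. SVCs are all the cells of the tissue other than adipocytes, a mixture of progenitors, endothelial cells, blood cells and macrophages, and were parted from adipocytes with collagenase I. All mice shared strain, sex, age and diet, with no genetic change or drug named in the labels. Whether each library is from its own mouse or from a pool is not in the labels, and p-values therefore measure only the spread between these libraries. Levels are in FPKM, fragments per kilobase of transcript and 1 M mapped fragments, a scale per length on which genes can be set beside each other. In these bulk libraries fewer cells of a type and less RNA per cell cannot be told apart.

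Carriers of this family lie in the inner mitochondrial membrane and exchange metabolites, nucleotides, cofactors and ions between the cytosol and the matrix. They are built from a repeated pair of membrane helices, are made in the cytosol and are inserted by the TIM22 import machinery. In white adipocytes the best known are the citrate carrier Slc25a1 and the dicarboxylate carrier Slc25a10. The first exports citrate, from which cytosolic acetyl-CoA and then fatty acids are made, and the second exchanges malate or succinate for phosphate. The adenine nucleotide translocases and the phosphate carrier supply ATP synthase in every cell type. The aspartate-glutamate and oxoglutarate-malate carriers form the malate-aspartate shuttle, which brings cytosolic reducing equivalents into the matrix.

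The 200 bases before the annotated transcription start of 5 members are given, for the pair of carriers with the largest adipocyte excess (Slc25a1 and Slc25a10), for the carrier with the largest depot difference in adipocytes (Slc25a24), and for both abundant nucleotide translocases, of which Slc25a5 was called between the depots in adipocytes and Slc25a4 was not. They are from RefSeq, on GRCm38.p6, and run 5′ to 3′ towards the gene. Capitals mark a CCAAT box (CCAAT) or a GC box (GGGCGG), read on both strands.
Slc25a1 (chr16:17928220-17928419, minus strand): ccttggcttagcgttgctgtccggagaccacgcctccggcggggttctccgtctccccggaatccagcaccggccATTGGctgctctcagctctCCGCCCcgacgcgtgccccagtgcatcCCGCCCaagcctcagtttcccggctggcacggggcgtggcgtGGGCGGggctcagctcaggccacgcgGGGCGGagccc
Slc25a10 (chr11:120491637-120491836, plus strand): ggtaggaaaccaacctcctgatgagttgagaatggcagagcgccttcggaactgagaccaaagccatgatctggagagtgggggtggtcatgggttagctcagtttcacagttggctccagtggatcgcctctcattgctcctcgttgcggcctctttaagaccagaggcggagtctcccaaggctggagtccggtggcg
Slc25a24 (chr3:109122949-109123148, plus strand): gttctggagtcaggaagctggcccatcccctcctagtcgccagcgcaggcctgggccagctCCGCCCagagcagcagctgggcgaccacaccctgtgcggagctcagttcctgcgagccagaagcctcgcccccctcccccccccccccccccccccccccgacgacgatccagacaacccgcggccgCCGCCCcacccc
Slc25a4 (chr8:46211063-46211262, minus strand): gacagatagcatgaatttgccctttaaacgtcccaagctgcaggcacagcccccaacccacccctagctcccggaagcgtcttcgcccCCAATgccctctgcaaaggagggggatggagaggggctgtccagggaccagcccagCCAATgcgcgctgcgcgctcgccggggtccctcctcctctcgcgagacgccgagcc
Slc25a5 (chrX:36795397-36795596, plus strand): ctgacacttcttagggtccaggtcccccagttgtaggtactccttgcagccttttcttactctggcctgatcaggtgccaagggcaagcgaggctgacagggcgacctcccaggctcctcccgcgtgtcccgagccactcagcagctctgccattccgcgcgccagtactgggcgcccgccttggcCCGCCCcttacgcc
The Slc25a1 window held 4 GC boxes and 1 CCAAT box, whereas the Slc25a10 window held neither, nor any of the other motifs searched. Slc25a4 held 2 CCAAT boxes and no GC box, and Slc25a5 held 1 GC box and no CCAAT box. Slc25a24 held 2 GC boxes. Of the 47 members, 36 had a window in the RefSeq table. A member was counted once if any of its windows matched, whereas shares of the table are per window. The shares below are thus in unlike units, and their difference was not tested. A GC box was in 25 of these 36 (69.4%), against 31.05% of the 32851 windows of the table, and a CCAAT box was in 16 (44.4%), against 29.35%. The E-box CACGTG was in 6 members (16.7%) and 5.26% of all windows. AAGGTCA, the half-site bound by estrogen-related receptors, was in 1 member and 3.18% of all windows. A sterol element (TCACNCCAC) was also in 1, against 0.858%, and the palindromic NRF1 element was in 0, against 0.728%. No capital match in the printed windows overlaps another, and a match is a description of the letters only.

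Libraries held an estimated 14.1 M to 24.6 M gene fragments, and 10718 to 12418 features reached 1 FPKM in a library. Pearson's r between libraries of 1 group, over genes as points that are no replicates, was 0.982 to 0.996, with the lowest values for EAT adipocyte replicate 1. Against the other libraries of its group it was highest in 20 and lowest in 12 of the 37 tested members, with log2 differences to their mean of -1.03 to 0.55 and a median of 0.07. The adipocyte label was borne out by the markers, since Adipoq, Plin1, Lep, Cfd, Pparg and Cidec summed to 25255 to 28545 FPKM in IAT adipocytes and 20702 to 27585 FPKM in EAT adipocytes. The same 6 genes summed to 192 to 215 FPKM in IAT SVCs and 80.9 to 93.6 FPKM in EAT SVCs. Macrophage markers (Adgre1, Cd68, Mrc1, Csf1r, Lyz2, Cd14) summed to 68.9 to 86.7 FPKM in IAT adipocytes, 332 to 394 FPKM in EAT adipocytes, 1414 to 1542 FPKM in IAT SVCs and 3060 to 3174 FPKM in EAT SVCs, and none of the 6 was at 0 in a whole group. Mesenchymal progenitor markers (Pdgfra, Dpp4, Pi16, Col1a1, Dcn) summed to 128 to 153 FPKM in IAT adipocytes, 153 to 161 FPKM in EAT adipocytes, 3320.5 to 3450 FPKM in IAT SVCs and 3569 to 4248 FPKM in EAT SVCs.

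Members spanned a range of levels from listed at 0 to above 400 FPKM. A group mean of at least 100 FPKM was reached by 6 members (Slc25a1, Slc25a3, Slc25a4, Slc25a5, Slc25a10 and Slc25a39), at least 20 FPKM by 17, and at least 1 FPKM by 37. The order at the top differed between fractions. In IAT adipocytes Slc25a1 came first at 407 ± 10.5 FPKM (SD, n = 3), with 20.4% of all member FPKM, ahead of Slc25a5, Slc25a3 and Slc25a4, and the libraries of neighbours in this order did not overlap. In EAT adipocytes Slc25a3, Slc25a4, Slc25a5 and Slc25a1 averaged 273, 272, 247 and 230.0 FPKM, neighbours whose libraries overlapped. In SVCs the phosphate carrier Slc25a3 came first in both depots, with 237 ± 11.7 FPKM in IAT SVCs and 221 ± 9.04 FPKM in EAT SVCs, then Slc25a5, Slc25a4 and Slc25a39. The libraries of Slc25a3 and Slc25a5 overlapped in EAT SVCs and did not in IAT SVCs. Slc25a1 was eighth in IAT SVCs with 2.25% of member FPKM. All members together made up 0.411% to 0.423% of the FPKM of a library in IAT adipocytes, 0.354% to 0.365% in EAT adipocytes, 0.173% to 0.182% in IAT SVCs and 0.187% to 0.196% in EAT SVCs.

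**Figure D1:**
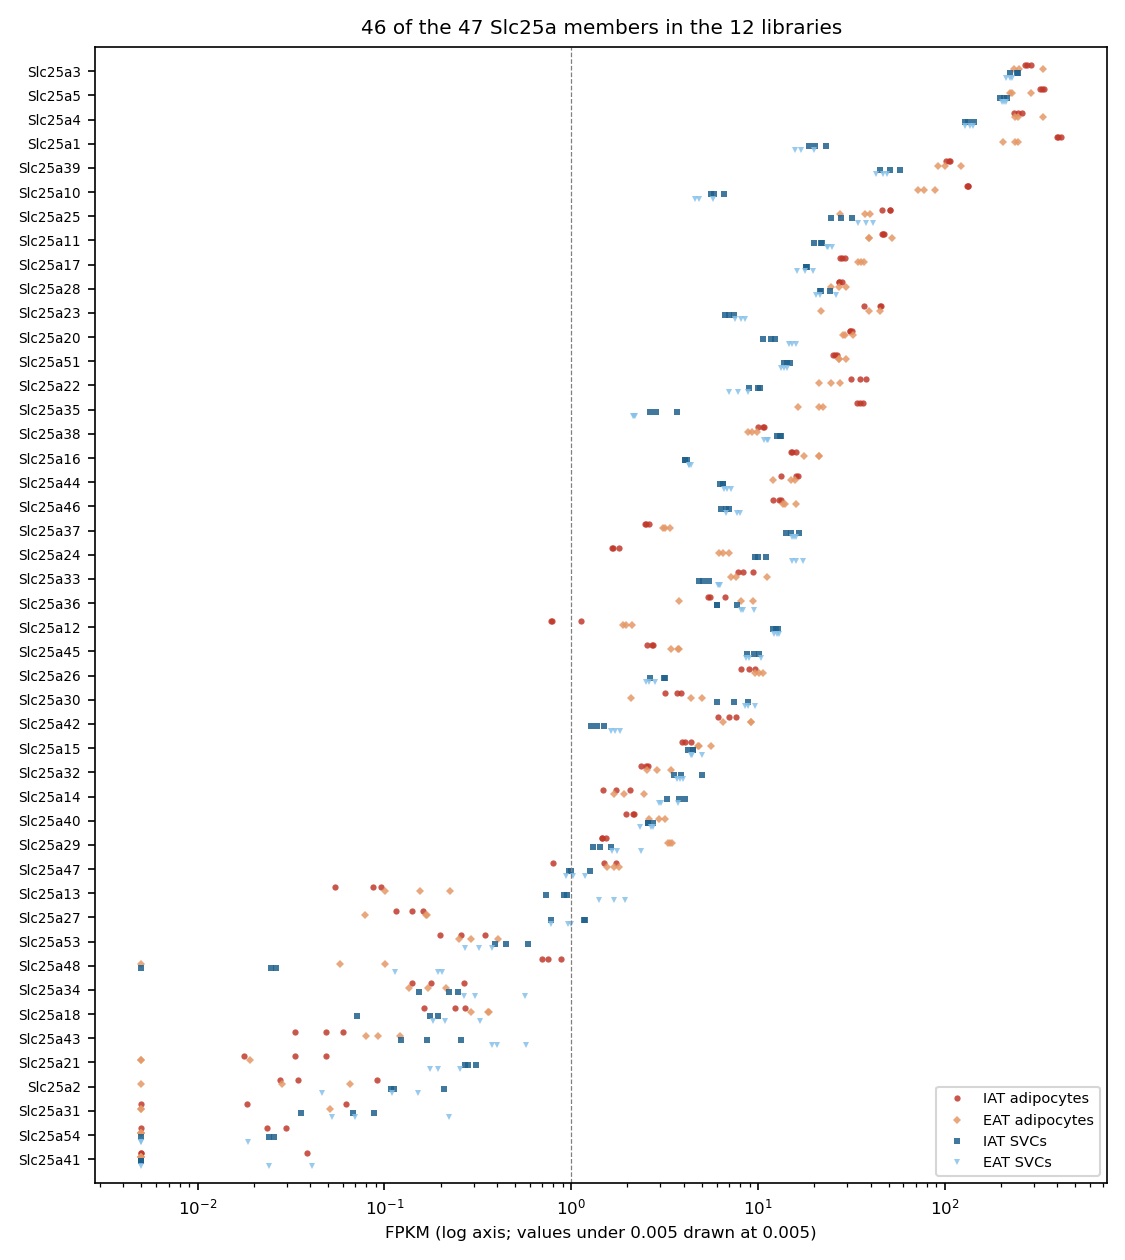
Level of 46 of the 47 members in all 12 libraries, in FPKM on a log axis, members ordered by their mean, with 1 point per library and the dashed line at 1 FPKM. Slc25a1, Slc25a10 and Slc25a35 lie far to the right in adipocytes, while Slc25a12, Slc25a24, Slc25a37 and Slc25a45 lie to the left of their SVC points.

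The comparison of the fractions asks which carriers are adipocyte transcripts and which are those of the remaining cells in a depot. Differences are of log2(FPKM + 1), adipocytes minus SVCs, from limma with Benjamini-Hochberg adjusted p over 13175 features, and a value is called at an adjusted p under 0.05. In IAT 21 of the 37 tested members were higher in adipocytes, 11 were lower and 5 were not called, which is 86.5% called against 83.7% of all features. In EAT 23 were higher, 10 lower and 4 not called, 89.2% against 83.8% of all features. Both shares called lie near those of all features. By direction, 29.8% of all features were higher and 53.9% lower in IAT adipocytes, and 31.1% were higher and 52.7% lower in EAT adipocytes. The median member had a log2 difference of 0.63 in IAT and 0.40 in EAT, against -0.34 and -0.31 for the median feature. Between the depots 20 members were higher and 10 lower in both, 0 were called in opposite directions, and 2 (Slc25a15 and Slc25a36) were called in neither. This overlap was not counted over all features, of which 83.7% were called in IAT and 83.8% in EAT. It is therefore not read as a trait of the carriers. Of the 10 lower in both, Slc25a13 and Slc25a27 passed the filter through SVC libraries alone and are no support for the count. Among the same 10, Slc25a38 was higher in both depots under median-of-ratios or quantile scaling, and in EAT Slc25a14 was higher under quantile and Slc25a32 under either scaling. Those scalings moved the median feature to 0.02 to 0.03 and the share of higher among all called features to 51.0% to 51.3%, against 35.6% in IAT and 37.1% in EAT as deposited. Under each of them 25 members were higher and 7 lower in IAT, and 25 higher and 6 lower in EAT.

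**Figure D2:**
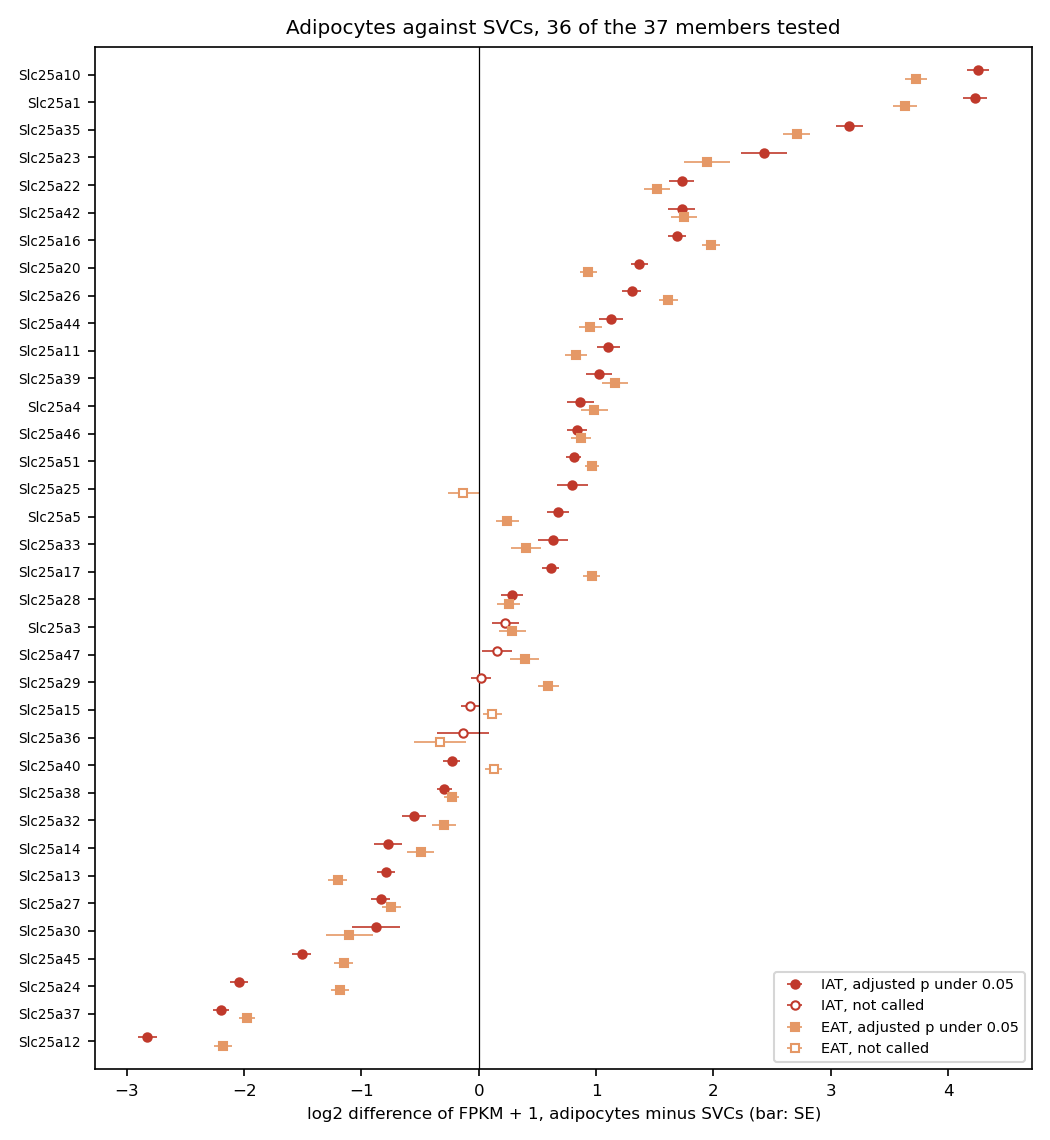
Log2 difference of FPKM + 1, adipocytes minus SVCs, of 36 of the 37 tested members in IAT (circles) and EAT (squares), with the standard error as bars and filled symbols for an adjusted p under 0.05. Slc25a10 and Slc25a1 are highest, at 4.26 and 4.23 in IAT, and Slc25a12 lowest, at -2.83 in IAT, while near 0 the direction of Slc25a14, Slc25a32, Slc25a38 and Slc25a40 turns under other scalings.

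The carriers of di- and tricarboxylates held the largest adipocyte excess, and 3 of 3 tested were called higher in both depots. The fourth listed, Slc25a21, was under the filter, and is given with the members left out. Slc25a1 was at 418, 399 and 403 FPKM in IAT adipocytes, 248, 204 and 238 FPKM in EAT adipocytes, 23.1, 20.3 and 18.8 FPKM in IAT SVCs, and 17.04, 19.9 and 15.9 FPKM in EAT SVCs. Slc25a10 was at 132, 132 and 133 FPKM in IAT adipocytes, 77.8, 71.5 and 88.3 FPKM in EAT adipocytes, 6.56, 5.81 and 5.58 FPKM in IAT SVCs, and 4.81, 5.76 and 4.58 FPKM in EAT SVCs. In both genes every adipocyte library lay above every SVC library, and every IAT adipocyte library above every EAT adipocyte library. For Slc25a1 (chr16:17925211-17928219 on mm10) the log2 difference between fractions was 4.23 ± 0.10 (adjusted p = 9.78e-13) in IAT and 3.64 ± 0.10 (adjusted p = 3.60e-12) in EAT, so that the SVC mean stood at 5.10% of the adipocyte mean in IAT and 7.65% in EAT. For Slc25a10 (chr11:120491837-120501161) the log2 difference was 4.26 ± 0.09 (adjusted p = 4.70e-13) in IAT and 3.73 ± 0.09 (adjusted p = 1.33e-12) in EAT, with SVC means at 4.51% and 6.37% of the adipocyte means. The median adipocyte marker stood in SVCs at 0.825% of its adipocyte level in IAT and 0.322% in EAT. Slc25a11 was at 47.2, 46.8 and 46.3 FPKM in IAT adipocytes, 52.1, 39.4 and 39.4 FPKM in EAT adipocytes, 21.7, 22.1 and 19.9 FPKM in IAT SVCs, and 23.3, 24.8 and 23.7 FPKM in EAT SVCs. Slc25a11, the oxoglutarate-malate carrier, was higher in adipocytes by a smaller log2 difference, 1.10 ± 0.10 (adjusted p = 2.02e-07) in IAT and 0.83 ± 0.10 (adjusted p = 3.48e-06) in EAT. The enzymes that use or make citrate and malate (Cs, Acly, Acaca, Fasn, Me1, Mdh1, Mdh2, Idh1 and Idh2) were higher in adipocytes in 9 of 9 cases in both depots, with median log2 differences of 2.45 in IAT and 1.90 in EAT. Among them Acly, which splits exported citrate, averaged 231 ± 29.1 FPKM in IAT adipocytes, 174 ± 18.1 in EAT adipocytes, 41.4 ± 2.45 in IAT SVCs and 53.1 ± 1.37 in EAT SVCs.

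The aspartate-glutamate carriers went the other way. Slc25a12 was at 1.13, 0.782 and 0.784 FPKM in IAT adipocytes, 1.89, 1.97 and 2.13 FPKM in EAT adipocytes, 12.4, 12.8 and 12.05 FPKM in IAT SVCs, and 12.6, 12.9 and 12.2 FPKM in EAT SVCs. Slc25a13 was at 0.0546, 0.0872 and 0.0960 FPKM in IAT adipocytes, 0.225, 0.155 and 0.101 FPKM in EAT adipocytes, 0.919, 0.735 and 0.952 FPKM in IAT SVCs, and 1.69, 1.41 and 1.94 FPKM in EAT SVCs. Slc25a12 (aralar, chr2:71274295-71367554) was lower in adipocytes, at a log2 difference of -2.83 ± 0.08 (adjusted p = 3.12e-12) in IAT and -2.18 ± 0.08 (adjusted p = 3.42e-11) in EAT, and no adipocyte library reached an SVC library. Slc25a13 (citrin, chr6:6041218-6217173), the form known from liver, was lower, at a log2 difference of -0.79 ± 0.08 (adjusted p = 6.24e-07) and -1.20 ± 0.08 (adjusted p = 8.67e-09), and was at most 0.225 FPKM in every adipocyte library. It passed the filter through the 3 EAT SVC libraries alone, where it is highest, so a difference to that group was built into its selection. On the scale of FPKM + 1 these differences understate the change of genes so low. Slc25a12 in adipocytes stood at 7.23% of its SVC mean in IAT and 15.9% in EAT, and Slc25a13 at 9.13% and 9.54%. In the same libraries the median mesenchymal progenitor marker stood at 2.88% and 2.91%, the median macrophage marker at 4.41% and 12.7%, and the median endothelial marker at 19.7% and 16.7% of the SVC level, and the part of such cells in the adipocyte values was not tested.

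The partners of Slc25a12 in the shuttle split in the same manner. Got1 averaged 2.22 ± 0.322 FPKM in IAT adipocytes, 3.95 ± 0.602 in EAT adipocytes, 37.6 ± 2.78 in IAT SVCs and 45.7 ± 2.93 in EAT SVCs. Got2 averaged 9.63 ± 0.303 FPKM in IAT adipocytes, 16.01 ± 2.76 in EAT adipocytes, 27.1 ± 1.67 in IAT SVCs and 27.9 ± 0.645 in EAT SVCs. Got1 and Got2, the cytosolic and mitochondrial aspartate aminotransferases, were lower in adipocytes, at a log2 difference of -3.58 ± 0.10 (adjusted p = 4.03e-12) and -1.40 ± 0.10 (adjusted p = 2.93e-08) in IAT, and at -3.24 ± 0.10 (adjusted p = 1.06e-11) and -0.78 ± 0.10 (adjusted p = 1.02e-05) in EAT. The malate dehydrogenases were higher instead. Mdh1 averaged 331 ± 12.96 FPKM in IAT adipocytes, 337 ± 72.5 in EAT adipocytes, 45.5 ± 3.53 in IAT SVCs and 42.2 ± 2.47 in EAT SVCs. Its log2 difference was 2.84 in IAT and 2.95 in EAT, and that of Mdh2 2.05 and 1.70. Of the list Got1, Got2 and Glud1, 0 were higher in adipocytes in either depot, while 2 of 3 were lower in IAT and 3 of 3 in EAT. Slc25a22 was at 31.4, 37.7 and 34.9 FPKM in IAT adipocytes, 21.2, 27.5 and 24.7 FPKM in EAT adipocytes, 10.3, 9.93 and 8.996 FPKM in IAT SVCs, and 7.85, 8.78 and 6.98 FPKM in EAT SVCs. Slc25a22, which carries glutamate with a proton, was higher in adipocytes by a log2 difference of 1.73 ± 0.11 (adjusted p = 6.06e-09) in IAT and 1.52 ± 0.11 (adjusted p = 2.26e-08) in EAT, and its group ranges do not overlap in any of the 4 comparisons. Per library, the ratio of Slc25a12 to Slc25a11 FPKM was 0.0239, 0.0167 and 0.0170 in IAT adipocytes and 0.0362, 0.05003 and 0.0539 in EAT adipocytes. It was 0.573, 0.580 and 0.605 in IAT SVCs and 0.543, 0.521 and 0.513 in EAT SVCs. Each fraction and depot comparison of this ratio gave an exact two-sided permutation p of 0.1, the smallest that 3 against 3 libraries allow (0.114 adjusted over 16 tests of ratios).

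**Figure D3:**
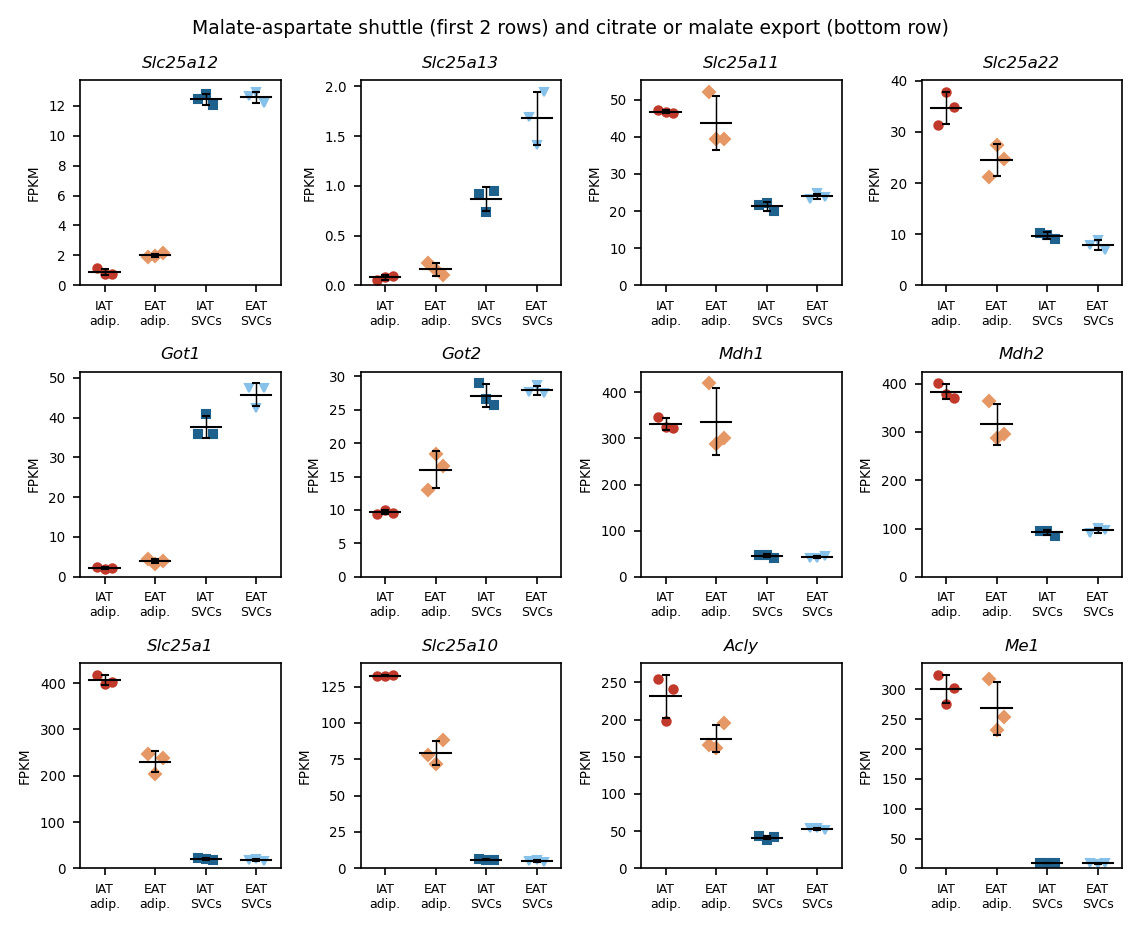
FPKM in each library of carriers and enzymes of the malate-aspartate shuttle (top and middle rows) and of citrate and malate export (bottom row), with bars for the mean and SD of 3 libraries. The top row also holds Slc25a22, which carries glutamate with a proton and is not a shuttle carrier. Slc25a12, Slc25a13, Got1 and Got2 are lower in adipocytes than in SVCs, whereas Slc25a11, Slc25a22, both malate dehydrogenases and all 4 genes of the bottom row are higher.

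The ADP/ATP translocases and the phosphate carrier were abundant in all groups. Slc25a3 was at 288, 275 and 267 FPKM in IAT adipocytes, 333, 235 and 250.2 FPKM in EAT adipocytes, 242, 245 and 223 FPKM in IAT SVCs, and 211, 229 and 224 FPKM in EAT SVCs. Slc25a3, the phosphate carrier, differed by a log2 difference of 0.23 ± 0.11 (adjusted p = 0.0849) in IAT, which was not called, and 0.28 ± 0.11 (adjusted p = 0.0352) in EAT. The EAT call was lost without EAT adipocyte replicate 1 (adjusted p = 0.0968), EAT SVC replicate 1 (0.104) or EAT SVC replicate 3 (0.0648). Slc25a4 was at 258, 245 and 235 FPKM in IAT adipocytes, 333, 237 and 246 FPKM in EAT adipocytes, 143, 134 and 128 FPKM in IAT SVCs, and 129, 142 and 136 FPKM in EAT SVCs. Slc25a5 was at 340.0, 329.7 and 323 FPKM in IAT adipocytes, 288, 224 and 230.0 FPKM in EAT adipocytes, 216, 207 and 197 FPKM in IAT SVCs, and 202, 213 and 208 FPKM in EAT SVCs. Slc25a4, the heart and muscle form, was higher in adipocytes by a log2 difference of 0.86 ± 0.12 (adjusted p = 1.29e-05) in IAT and 0.98 ± 0.12 (adjusted p = 3.71e-06) in EAT. Slc25a5, the form of proliferating cells, was higher by a log2 difference of 0.68 ± 0.10 (adjusted p = 2.11e-05) in IAT and 0.24 ± 0.10 (adjusted p = 0.0308) in EAT. The EAT value was not called without EAT adipocyte replicate 1 (adjusted p = 0.0753), EAT SVC replicate 1 (0.0884) or EAT SVC replicate 3 (0.0659). The ratio of Slc25a4 to Slc25a5 was 0.759, 0.744 and 0.728 in IAT adipocytes and 1.157, 1.055 and 1.069 in EAT adipocytes. It was 0.662, 0.646 and 0.650 in IAT SVCs and 0.637, 0.664 and 0.655 in EAT SVCs. Slc25a4 thus exceeded Slc25a5 in each EAT adipocyte library and in no other library. The exact permutation p of the depot difference was 0.1 in adipocytes, the smallest possible, and 1 in SVCs. These paralogs are close in sequence and Slc25a5 has an annotated pseudogene, so reads shared between copies make their split uncertain.

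The calcium-regulated ATP-Mg/phosphate carriers, which set the adenine nucleotide content of the matrix, did not move together. Slc25a23 was at 36.9, 44.8 and 45.6 FPKM in IAT adipocytes, 21.8, 44.96 and 39.4 FPKM in EAT adipocytes, 7.41, 6.97 and 6.66 FPKM in IAT SVCs, and 7.54, 8.56 and 8.09 FPKM in EAT SVCs. Slc25a24 was at 1.81, 1.67 and 1.65 FPKM in IAT adipocytes, 6.48, 6.21 and 6.98 FPKM in EAT adipocytes, 9.97, 9.58 and 11.1 FPKM in IAT SVCs, and 15.9, 15.2 and 17.4 FPKM in EAT SVCs. Slc25a25 was at 50.96, 45.8 and 50.9 FPKM in IAT adipocytes, 27.3, 39.9 and 37.4 FPKM in EAT adipocytes, 31.7, 24.7 and 27.7 FPKM in IAT SVCs, and 37.9, 41.4 and 34.5 FPKM in EAT SVCs. Slc25a23 was higher in adipocytes by a log2 difference of 2.43 ± 0.20 (adjusted p = 8.98e-08) in IAT and 1.95 ± 0.20 (adjusted p = 8.44e-07) in EAT, with EAT adipocyte replicate 1 lowest of its group. Slc25a24 (chr3:109123149-109168409) was lower in adipocytes, at a log2 difference of -2.05 ± 0.08 (adjusted p = 4.43e-11) in IAT and -1.18 ± 0.08 (adjusted p = 9.92e-09) in EAT, and none of its 4 groups overlap. Slc25a25 was higher in adipocytes in IAT by a log2 difference of 0.80 ± 0.13 (adjusted p = 9.74e-05) and was not called in EAT, at -0.13 ± 0.13 (adjusted p = 0.365), where the fractions overlap. The ratio of Slc25a24 to Slc25a23 was 0.0362 to 0.0490 in IAT adipocytes, 0.138 to 0.297 in EAT adipocytes, 1.345 to 1.661 in IAT SVCs and 1.78 to 2.15 in EAT SVCs.

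**Figure D4:**
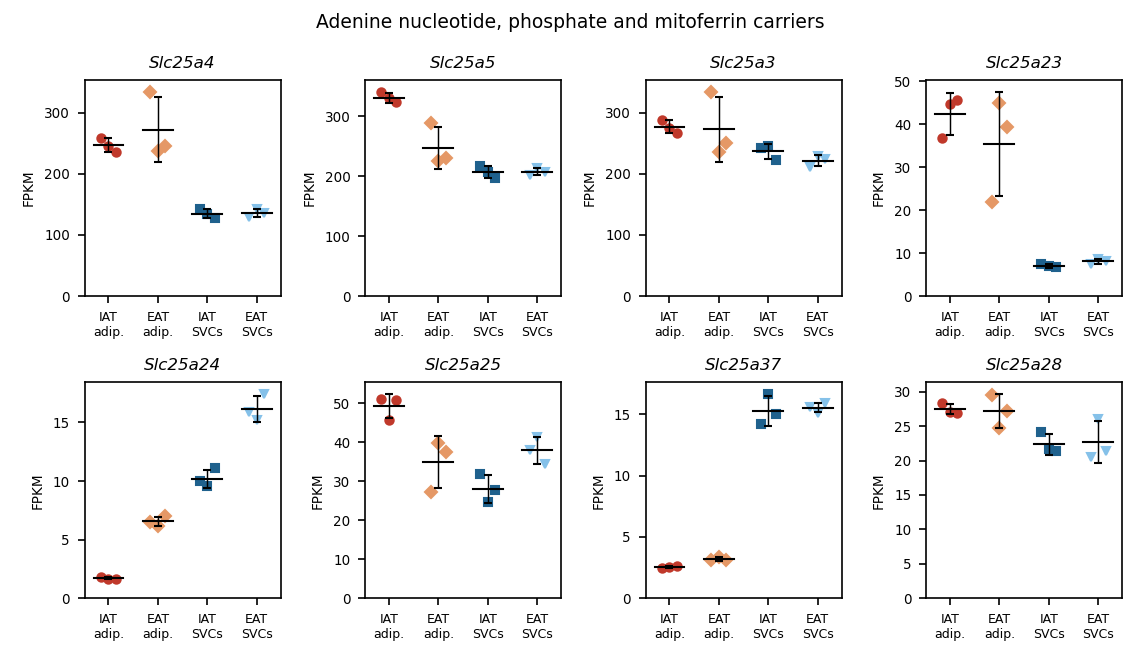
FPKM in each library of the nucleotide translocases, the phosphate carrier, the 3 tested ATP-Mg/phosphate carriers and both mitoferrins, with bars for the mean and SD of 3 libraries. Slc25a5 and Slc25a25 are higher in IAT than in EAT adipocytes and Slc25a24 is lower, and Slc25a37 is lower in adipocytes than in SVCs while Slc25a28 lies between 20.5 and 29.6 FPKM in all libraries.

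Iron and glutathione carriers also split. Slc25a37 was at 2.48, 2.53 and 2.62 FPKM in IAT adipocytes, 3.16, 3.37 and 3.09 FPKM in EAT adipocytes, 14.2, 16.6 and 15.05 FPKM in IAT SVCs, and 15.6, 15.1 and 15.9 FPKM in EAT SVCs. Slc25a28 was at 28.3, 27.1 and 26.96 FPKM in IAT adipocytes, 29.6, 24.7 and 27.2 FPKM in EAT adipocytes, 24.1, 21.6 and 21.4 FPKM in IAT SVCs, and 20.5, 26.1 and 21.4 FPKM in EAT SVCs. Slc25a37, the mitoferrin of red cell precursors, was lower in adipocytes, at a log2 difference of -2.20 ± 0.07 (adjusted p = 9.84e-12) in IAT and -1.98 ± 0.07 (adjusted p = 2.77e-11) in EAT. Slc25a28, the mitoferrin of other tissues, was higher by a log2 difference of 0.28 ± 0.10 (adjusted p = 0.0144) in IAT and 0.25 ± 0.10 (adjusted p = 0.0253) in EAT. Its EAT call was lost without EAT adipocyte replicate 1 (adjusted p = 0.0738) or 3 (0.0556) or EAT SVC replicate 1 (0.116) or 3 (0.0852), and its IAT call without IAT SVC replicate 3 (0.0517). Red cell markers (Hba-a1, Hba-a2, Hbb-bs, Hbb-bt, Hbb-b1, Alas2, Slc4a1, of which 6 were listed) summed to 1828 to 2426 FPKM in IAT adipocytes, 1239 to 1854 FPKM in EAT adipocytes, 34627 to 45089 FPKM in IAT SVCs and 24358 to 30204 FPKM in EAT SVCs. Their part in the Slc25a37 difference was not tested. Slc25a39 was at 105, 106 and 101 FPKM in IAT adipocytes, 122, 91.97 and 99.97 FPKM in EAT adipocytes, 50.8, 57.3 and 44.9 FPKM in IAT SVCs, and 42.8, 49.1 and 46.6 FPKM in EAT SVCs. Slc25a40 was at 1.96, 2.14 and 2.18 FPKM in IAT adipocytes, 3.19, 2.96 and 2.61 FPKM in EAT adipocytes, 2.57, 2.58 and 2.75 FPKM in IAT SVCs, and 2.68, 2.33 and 2.75 FPKM in EAT SVCs. Slc25a39, which carries glutathione into the matrix, was higher in adipocytes by a log2 difference of 1.02 ± 0.11 (adjusted p = 1.70e-06) in IAT and 1.16 ± 0.11 (adjusted p = 4.94e-07) in EAT. Its relative Slc25a40 was called in IAT only, at a log2 difference of -0.23 ± 0.08 (adjusted p = 0.0121), a direction that turned to 0.07 under median-of-ratios and to 0.33 under quantile scaling. The quantile value was itself called, as higher in IAT adipocytes (limma adjusted p = 0.00252), so the direction of Slc25a40 rests on the scaling.

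Carnitine and amino acid carriers differed in direction. Slc25a20 was at 30.9, 31.8 and 31.1 FPKM in IAT adipocytes, 32.2, 28.6 and 29.2 FPKM in EAT adipocytes, 12.2, 10.6 and 11.7 FPKM in IAT SVCs, and 15.2, 14.6 and 15.96 FPKM in EAT SVCs. Slc25a20, the carnitine-acylcarnitine translocase of fatty acid oxidation, was higher in adipocytes by a log2 difference of 1.37 ± 0.07 (adjusted p = 1.15e-09) in IAT and 0.93 ± 0.07 (adjusted p = 5.74e-08) in EAT. Slc25a44, the carrier of branched-chain amino acids, ranged over 13.2 to 16.5 FPKM in IAT adipocytes, 12.1 to 15.8 FPKM in EAT adipocytes, 6.22 to 6.49 FPKM in IAT SVCs and 6.60 to 7.17 FPKM in EAT SVCs, with log2 differences of 1.13 and 0.95 that were both called. Of the enzymes that break down these amino acids (Bcat2, Bckdha, Bckdhb, Dbt, Ivd), 5 of 5 were higher in adipocytes in both depots. Slc25a38 was at 10.7, 10.7 and 9.94 FPKM in IAT adipocytes, 9.29, 8.79 and 9.84 FPKM in EAT adipocytes, 13.1, 13.3 and 12.7 FPKM in IAT SVCs, and 10.7, 11.4 and 11.2 FPKM in EAT SVCs. Slc25a38, the glycine carrier of heme synthesis, was lower in adipocytes, at a log2 difference of -0.29 ± 0.06 (adjusted p = 9.42e-04) in IAT and -0.23 ± 0.06 (adjusted p = 0.00481) in EAT, but higher under median-of-ratios (0.10 in IAT, 0.12 in EAT) and quantile scaling (0.0067 in IAT, 0.06 in EAT). Slc25a29 was at 1.46, 1.53 and 1.46 FPKM in IAT adipocytes, 3.48, 3.37 and 3.29 FPKM in EAT adipocytes, 1.63, 1.42 and 1.31 FPKM in IAT SVCs, and 1.76, 2.36 and 1.65 FPKM in EAT SVCs. Slc25a29, a carrier of basic amino acids, was higher in adipocytes in EAT by a log2 difference of 0.59 ± 0.09 (adjusted p = 3.06e-05) and was not called in IAT, at 0.02 ± 0.09 (adjusted p = 0.849). Slc25a15, the ornithine carrier of the urea cycle, was not called in either depot.

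Of 7 tested carriers of cofactors, 5 were called higher in adipocytes, 1 lower and 1 not called in IAT, and 6 were higher and 1 lower in EAT. Slc25a16 was at 14.9, 15.3 and 16.03 FPKM in IAT adipocytes, 21.2, 21.3 and 17.6 FPKM in EAT adipocytes, 4.15, 4.05 and 4.04 FPKM in IAT SVCs, and 4.29, 4.27 and 4.37 FPKM in EAT SVCs. Slc25a16 and Slc25a42, both tied to coenzyme A in the matrix, were higher by a log2 difference of 1.69 and 1.73 in IAT and by 1.98 and 1.75 in EAT. Slc25a26, the carrier of S-adenosylmethionine, was higher by a log2 difference of 1.30 in IAT and 1.62 in EAT. Slc25a51 was at 25.2, 26.4 and 25.8 FPKM in IAT adipocytes, 29.5, 27.00 and 27.1 FPKM in EAT adipocytes, 14.3, 14.8 and 13.8 FPKM in IAT SVCs, and 13.7, 13.3 and 14.3 FPKM in EAT SVCs. Slc25a17 was at 28.1, 27.5 and 29.1 FPKM in IAT adipocytes, 36.9, 35.7 and 34.4 FPKM in EAT adipocytes, 18.3, 18.02 and 18.04 FPKM in IAT SVCs, and 17.9, 16.1 and 19.6 FPKM in EAT SVCs. Slc25a51, which brings NAD into mitochondria, was higher by a log2 difference of 0.81 in IAT and 0.96 in EAT. Slc25a17, a coenzyme A and nucleotide carrier of the peroxisome membrane and so outside the mitochondrion, was higher by a log2 difference of 0.61 and 0.96. Slc25a32, the flavin and folate carrier, was lower, at a log2 difference of -0.55 in IAT and -0.30 in EAT, although in EAT it was higher under median-of-ratios (0.0036) and quantile scaling (0.18). Slc25a47, known from liver, stood at 0.803 to 1.80 FPKM in all groups and was called in EAT only, at a log2 difference of 0.39.

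Among the remaining members, the uncoupling protein relatives known from brain and kidney (Slc25a14, Slc25a27 and Slc25a30) were lower in adipocytes in both depots. Slc25a14 in EAT was at a log2 difference of 0.02 under quantile scaling, and was not called in EAT under median-of-ratios (adjusted p = 0.127) or in IAT under quantile scaling (adjusted p = 0.104). Slc25a27 reached 1 FPKM in 3 SVC libraries and no adipocyte library, so it passed the filter through the fraction in which it is high, and its EAT call was lost under quantile scaling (log2 difference -0.09, adjusted p = 0.313). Slc25a30 was at 3.68, 3.17 and 3.87 FPKM in IAT adipocytes, 2.10, 5.02 and 4.38 FPKM in EAT adipocytes, 7.46, 6.05 and 8.86 FPKM in IAT SVCs, and 9.68, 8.85 and 8.48 FPKM in EAT SVCs. Its log2 differences were -0.88 ± 0.20 (adjusted p = 0.00131) in IAT and -1.10 ± 0.20 (adjusted p = 2.11e-04) in EAT. Of the pyrimidine nucleotide carriers, Slc25a33 was higher by a log2 difference of 0.63 in IAT and 0.40 in EAT, and Slc25a36 was not called. Slc25a46, which lies in the outer membrane and takes part in mitochondrial fusion and fission, was higher by a log2 difference of 0.84 and 0.87. Slc25a35 was at 33.7, 35.1 and 36.2 FPKM in IAT adipocytes, 16.3, 21.1 and 22.3 FPKM in EAT adipocytes, 3.68, 2.65 and 2.83 FPKM in IAT SVCs, and 2.15, 2.20 and 2.17 FPKM in EAT SVCs. Slc25a45 was at 2.55, 2.73 and 2.69 FPKM in IAT adipocytes, 3.44, 3.71 and 3.76 FPKM in EAT adipocytes, 9.51, 10.1 and 8.67 FPKM in IAT SVCs, and 8.64, 10.4 and 8.91 FPKM in EAT SVCs. Slc25a35, to which no substrate is given here, was higher in adipocytes by a log2 difference of 3.16 ± 0.11 (adjusted p = 3.00e-11) in IAT and 2.71 ± 0.11 (adjusted p = 1.34e-10) in EAT. In GENCODE vM21, 31.3% of its exonic bases overlap Rangrf on the opposite strand, and strand use in the counting was not given in the sources used here. Rangrf averaged 6.56 ± 0.256 FPKM in IAT adipocytes, 7.997 ± 2.56 in EAT adipocytes, 4.49 ± 1.02 in IAT SVCs and 4.57 ± 0.711 in EAT SVCs, with log2 differences between fractions of 0.48 in IAT and 0.66 in EAT. Slc25a45 was lower in adipocytes, at a log2 difference of -1.51 ± 0.08 (adjusted p = 1.44e-09) in IAT and -1.15 ± 0.08 (adjusted p = 2.28e-08) in EAT.

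The comparison of the depots asks how carriers of subcutaneous and visceral fat differ within each fraction. In adipocytes 6 of the 37 tested members were higher in IAT, 9 were lower and 22 were not called, or 40.5% called against 37.6% of all features, 10.3% being higher and 27.3% lower. The member share is near that of all features, and the median member had a log2 difference of -0.10, as did the median feature. Under median-of-ratios or quantile scaling 7 members were higher and 6 lower, and the share of higher among all called features moved to 49.2% and 48.5%, against 27.5% as deposited. With 1 library left out, 6 to 8 members were higher and 7 to 11 lower. Without EAT adipocyte replicate 1, 5 of the 22 uncalled members were called, and the share of all features called was 49.3%. Slc25a1 led those higher in IAT at a log2 difference of 0.82 ± 0.10 (adjusted p = 5.38e-05), with means of 407 ± 10.5 FPKM in IAT and 230.0 ± 22.8 FPKM in EAT adipocytes (SD, n = 3 each). Slc25a35 followed at a log2 difference of 0.79 ± 0.11 (adjusted p = 1.71e-04) and Slc25a10 at 0.74 ± 0.09 (adjusted p = 6.23e-05). Slc25a25 (log2 difference 0.50), Slc25a22 (0.49) and Slc25a5 (0.43) were the other 3 higher in IAT, each with no overlap between the depots. The Slc25a25 call was lost on rescaling to TPM (adjusted p = 0.0604).

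Slc25a24 was the one member to differ by more than 2-fold on this scale, lower in IAT adipocytes, at a log2 difference of -1.48 ± 0.08 (adjusted p = 2.20e-08), with means of 1.71 ± 0.0838 FPKM in IAT and 6.56 ± 0.393 FPKM in EAT adipocytes. Macrophage and mesothelial marker sums were lower in IAT adipocytes as well, the mesothelial list (Msln, Upk3b, Krt19) at 0.0859 to 0.0952 FPKM in IAT and 13.0 to 14.8 FPKM in EAT adipocytes, and their part in the Slc25a24 difference was not tested. Slc25a29 was lower in IAT, at a log2 difference of -0.82 ± 0.09 (adjusted p = 1.34e-05) and Slc25a12 at -0.66 ± 0.08 (adjusted p = 3.82e-05). Slc25a16 (log2 difference -0.35), Slc25a45 (-0.34), Slc25a40 (-0.34), Slc25a17 (-0.33), Slc25a37 (-0.25) and Slc25a15 (-0.25) made up the rest. Of these 6, Slc25a16 alone kept its call under both other scalings. Slc25a45 (adjusted p = 0.0846) and Slc25a40 (0.0914) were not called under quantile scaling, Slc25a17 (0.0751) under median-of-ratios, and Slc25a37 (0.138 and 0.296) and Slc25a15 (0.245 and 0.392) under median-of-ratios and quantile scaling. Slc25a37 lost its call without EAT adipocyte replicate 2 (adjusted p = 0.0536) or IAT adipocyte replicate 1 (0.0544). Slc25a15 lost it without EAT adipocyte replicate 1 (0.0571) or IAT adipocyte replicate 1 (0.0756) or 2 (0.0898). Of the shuttle enzymes, Got1 was lower in IAT adipocytes, at a log2 difference of -0.62 ± 0.10 (adjusted p = 5.76e-04) and Got2 at -0.66 ± 0.10 (adjusted p = 2.78e-04). Mdh1 (-0.0034, adjusted p = 0.988) and Glud1 (-0.01, adjusted p = 0.919) were not called on the log2 scale, and Mdh2 was higher in IAT adipocytes, at a log2 difference of 0.29 (adjusted p = 0.0349). Respiratory chain genes were higher in IAT adipocytes in 9 of 15 cases and lower in 0, and citrate and malate enzymes were higher in 6 of 9 and lower in 0. Markers of brown and beige adipocytes (Ucp1, Cidea, Cox8b, Prdm16, Elovl3) summed to 276 to 323 FPKM in IAT adipocytes and 26.5 to 42.8 FPKM in EAT adipocytes, with 0 of 5 at 0 in a whole group. The mean was under 1 FPKM for 2 of the 5 in IAT adipocytes and for 3 in EAT adipocytes. Ucp1 itself averaged 0.570 ± 0.196 and 0.223 ± 0.0390 FPKM there, against 0.698 ± 0.197 in IAT SVCs and 1.80 ± 0.183 in EAT SVCs. The part of brown or beige adipocytes in the carrier differences was not tested.

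**Figure D5:**
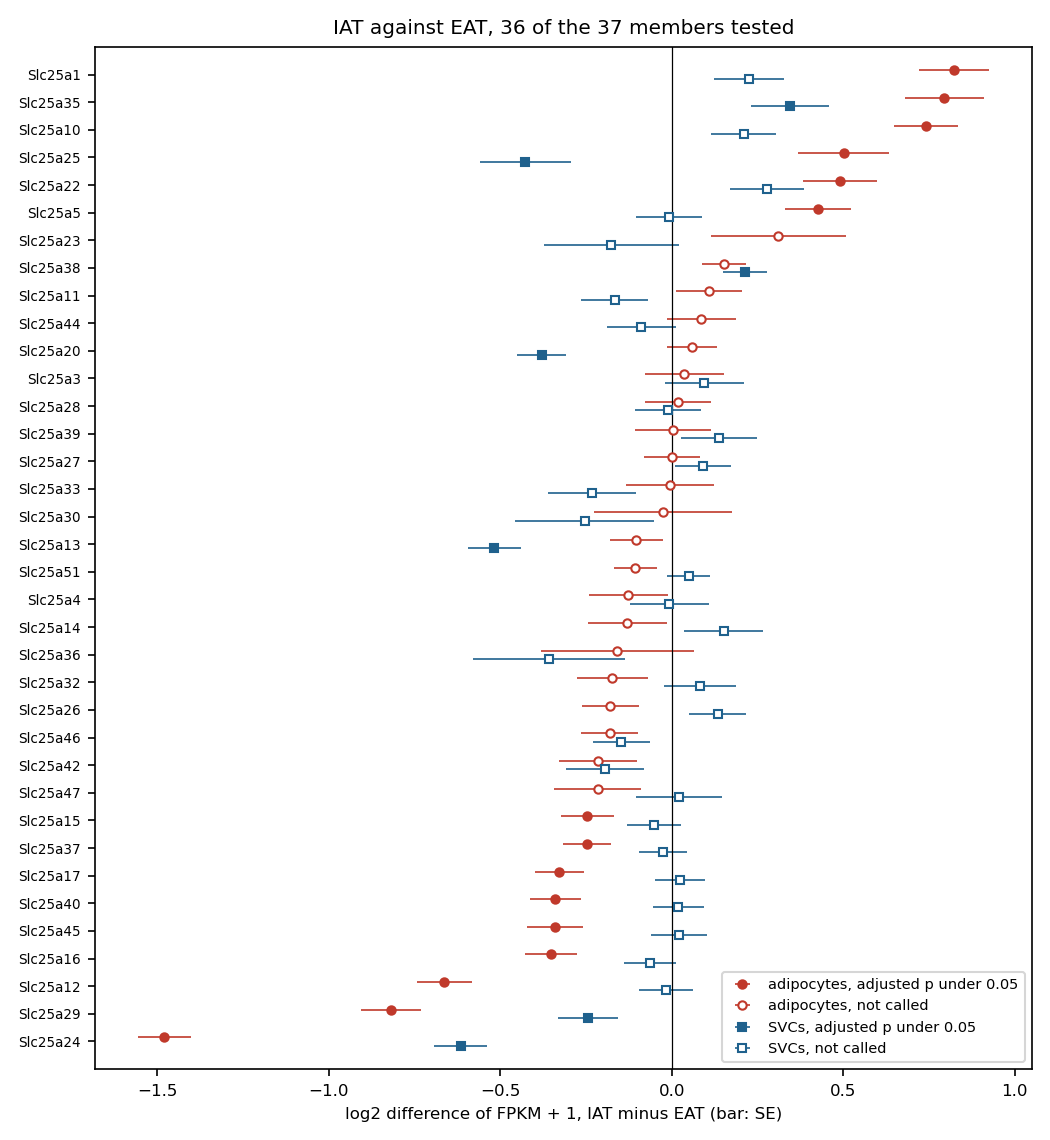
Log2 difference of FPKM + 1, IAT minus EAT, of 36 of the 37 tested members in adipocytes (circles) and SVCs (squares), with the standard error as bars and filled symbols for an adjusted p under 0.05. Differences run from -1.48 (Slc25a24) to 0.82 (Slc25a1) in adipocytes and from -0.62 (Slc25a24) to 0.34 (Slc25a35) in SVCs, and Slc25a25 is called in opposite directions.

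In SVCs 2 members were higher in IAT, 5 were lower and 30 were not called, or 18.9% called against 40.2% of all features, 14.0% being higher and 26.2% lower. The median member had a log2 difference of -0.01 and the median feature by -0.06. Slc25a24 was again lower in IAT, at a log2 difference of -0.62 ± 0.08 (adjusted p = 3.65e-05), and Slc25a13 was lower, at -0.52 ± 0.08 (adjusted p = 1.65e-04). Slc25a25 was lower, at a log2 difference of -0.43 ± 0.13 (adjusted p = 0.0218), Slc25a20 at -0.38 ± 0.07 (adjusted p = 0.00104) and Slc25a29 at -0.24 ± 0.09 (adjusted p = 0.0413). Higher in IAT SVCs were Slc25a35 at a log2 difference of 0.34 ± 0.11 (adjusted p = 0.0297) and Slc25a38 at 0.21 ± 0.06 (adjusted p = 0.0192). Slc25a24 and Slc25a20 kept their calls under all 22 alternatives, Slc25a13 under the 18 that gave a value, and the other 4 lost theirs under some. Slc25a13 reached 1 FPKM in the EAT SVC libraries only, so it passed the filter through the group in which it is high. It failed the filter on the mean, and the main filter without any 1 of the EAT SVC replicates. Those settings thus gave no value, and Slc25a13 is no support for the count of lower members. By scaling, Slc25a25 and Slc25a29 lost their calls under median-of-ratios and quantile scaling, and Slc25a35 and Slc25a38 on the TPM scale. Slc25a25 was not called without EAT SVC replicate 1 (adjusted p = 0.0590) or 2 (0.0856) or IAT SVC replicate 2 (0.0991) or 3 (0.0566). Slc25a35 was not called without any 1 of the EAT SVC replicates (0.0642 to 0.0782) or without IAT SVC replicate 1 (0.132), and Slc25a38 without EAT SVC replicate 1 (0.0796) or IAT SVC replicate 1 (0.0527) or 2 (0.0671). Slc25a29 was not called without 8 of the 12 libraries, left out 1 at a time (0.0529 to 0.164), and kept its call without EAT adipocyte replicate 1 or 2, EAT SVC replicate 3 or IAT SVC replicate 1. The counts moved with the scaling, to 5 higher and 3 lower under median-of-ratios, 8 higher and 3 lower under quantile scaling, and 0 higher and 9 lower on the TPM scale. These fits tested 36, 37 and 38 members in turn, and 1 of the 9 on the TPM scale was tested there only through the rescaled filter. SVC makeup differed between the depots too, as lymphocyte markers (Cd3e, Cd3d, Cd3g, Ms4a1, Cd79a, Ccr7) summed to 217 to 338 FPKM in IAT and 43.0 to 48.2 FPKM in EAT SVCs, and mesothelial markers to 1.48 to 1.88 FPKM in IAT and 304 to 365 FPKM in EAT SVCs. Their part in the member differences was not tested.

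The test of whether the depot difference itself differed between fractions, IAT minus EAT in adipocytes less the same in SVCs, called 7 members higher and 6 lower, 35.1% against 32.5% of all features, 14.7% being higher and 17.8% lower. Slc25a13, among the 7 higher, passed the filter through EAT SVC libraries alone and is no support for the count. Slc25a25 differed most at a log2 difference of 0.93 ± 0.19 (adjusted p = 0.00234). It was the one member whose depot difference was called in both fractions and in opposite directions, higher in IAT adipocytes and lower in IAT SVCs. Slc25a24, Slc25a29 and Slc25a35 were called in both fractions in the same direction. The SVC calls of Slc25a25, Slc25a29 and Slc25a35 were lost under some alternatives. These overlaps were not counted over all features, of which 37.6% were called between the depots in adipocytes and 40.2% in SVCs. They are therefore not read as a trait of the carriers. The depot difference of Slc25a24 was lower in adipocytes than in SVCs, at a log2 difference of -0.86 ± 0.11 (adjusted p = 6.13e-05), and that of Slc25a12 at -0.65 ± 0.11 (adjusted p = 7.89e-04). Slc25a1 and Slc25a10 had a more positive depot difference in adipocytes, at a log2 difference of 0.60 ± 0.14 (adjusted p = 0.00725) and 0.53 ± 0.13 (adjusted p = 0.00865), while in SVCs neither was called (0.23 and 0.21). The carnitine-acylcarnitine carrier Slc25a20 was also among the higher, at a log2 difference of 0.44 ± 0.10 (adjusted p = 0.00574), with an SVC difference of -0.38 and an adipocyte difference of 0.06. Slc25a5 at a log2 difference of 0.43 ± 0.13 (adjusted p = 0.0270) was called, a call lost without any 1 of 8 of the 12 libraries (adjusted p 0.0535 to 0.0673), and Slc25a4 was not called, at -0.12 ± 0.16 (adjusted p = 0.619).

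The filter of at least 1 FPKM in at least 3 libraries left out 10 members, Slc25a2, Slc25a18, Slc25a21, Slc25a31, Slc25a34, Slc25a41, Slc25a43, Slc25a48, Slc25a53 and Slc25a54. They include Slc25a31, the translocase of testis, Slc25a18, a glutamate carrier known from brain, and Slc25a2, an ornithine carrier. All of their values were under 1 FPKM. Slc25a48 was at 0.883, 0.754 and 0.697 FPKM in IAT adipocytes, 0.1003, 0.0578 and 0 FPKM in EAT adipocytes, 0.0263, 0 and 0.0247 FPKM in IAT SVCs, and 0.204, 0.114 and 0.194 FPKM in EAT SVCs. Slc25a48, a choline carrier, rested on an estimated 29.0, 31.0 and 25.8 fragments in the IAT adipocyte libraries, against 3.996, 1.99 and 0 fragments in the EAT adipocyte libraries. In a fit with no filter it was higher in IAT than in EAT adipocytes by a log2 difference of 0.76 ± 0.05 (limma adjusted p = 1.87e-06) and higher in IAT adipocytes than in IAT SVCs by 0.80 ± 0.05 (adjusted p = 6.92e-08). Slc25a48 was singled out after its values were seen, so its p-values in this fit describe those values and are no independent support. It was lower in IAT than in EAT SVCs by that fit, at a log2 difference of -0.20 (adjusted p = 0.00636), and lower in EAT adipocytes than in EAT SVCs, at -0.15 (adjusted p = 0.0122). Its SVC values rested on an estimated 1.00, 0 and 1 fragments in IAT and 9.59, 6.00 and 6.00 in EAT. No library outside IAT adipocytes passed 0.204 FPKM. Slc25a21, the oxodicarboxylate carrier, was at most 0.0484 FPKM in adipocytes and at least 0.176 FPKM in SVCs, and was lower in adipocytes in the fit with no filter, at a log2 difference of -0.32 (adjusted p = 5.38e-07) in IAT and -0.26 (adjusted p = 2.32e-06) in EAT. Its values rested on an estimated 0 to 1.90 fragments per adipocyte library and 8.84 to 20.7 per SVC library. Among the 10 members left out, the fit with no filter called 1 higher and 4 lower in adipocytes in IAT, and 0 higher and 5 lower in EAT. Of all 20312 features in that fit, 66.4% were called in IAT and 71.2% in EAT. Of those called, 31.8% and 31.2% were higher in adipocytes.

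Genes that work with the carriers are given beside them. Of the import machinery that inserts the family (Timm22, Agk, Timm9, Timm10, Timm10b, Timm8a1, Timm8b, Timm13, Tomm70a), 9 of 9 were higher in adipocytes in both depots, with median log2 differences of 0.66 in IAT and 0.98 in EAT. Respiratory chain genes were higher in 15 of 15 cases in both, with medians of 1.89 and 1.62. Summed member FPKM per library, set against the summed FPKM of these 15 respiratory chain genes, was 0.357 to 0.372 in IAT adipocytes, 0.378 to 0.399 in EAT adipocytes, 0.590 to 0.615 in IAT SVCs and 0.629 to 0.646 in EAT SVCs. Both sums were thus higher in adipocytes, and the ratio was lower there in every library. Family relatives outside the symbol rule differed among themselves. Ucp2 averaged 23.3 ± 2.53 FPKM in IAT adipocytes, 56.5 ± 5.96 in EAT adipocytes, 195 ± 13.2 in IAT SVCs and 299.7 ± 24.4 in EAT SVCs. Ucp3 averaged 9.18 ± 0.949 FPKM in IAT adipocytes, 9.80 ± 1.78 in EAT adipocytes, 0.207 ± 0.0635 in IAT SVCs and 0.155 ± 0.0612 in EAT SVCs. Ucp2 was lower in adipocytes, at a log2 difference of -3.01 ± 0.10 (adjusted p = 1.69e-11) in IAT and -2.39 ± 0.10 (adjusted p = 1.56e-10) in EAT, and lower in IAT than in EAT in both fractions, at -1.24 in adipocytes and -0.62 in SVCs. Ucp3, the uncoupling protein relative of muscle, was higher in adipocytes by a log2 difference of 3.07 and 3.21, and so was Mtch2, a carrier-like protein of the outer membrane, by 2.00 and 1.91. The list of coenzyme A and one-carbon genes split as well, with 3 of 6 tested higher and 3 lower in IAT adipocytes. In EAT adipocytes 2 were higher and 3 lower. The coenzyme A genes Pank3 and Coasy averaged 53.9 and 33.3 FPKM in IAT adipocytes, and 10.5 and 6.51 in IAT SVCs. Shmt2, like Mthfd2 an enzyme of mitochondrial one-carbon metabolism, averaged 6.21 FPKM in IAT adipocytes and 14.3 in IAT SVCs. Mthfd2 averaged 1.89 ± 0.07002 FPKM in IAT adipocytes, 4.14 ± 0.809 in EAT adipocytes, 10.5 ± 0.456 in IAT SVCs and 9.07 ± 0.857 in EAT SVCs. Mthfd2 was lower in adipocytes, at a log2 difference of -2.00 in IAT and -0.98 in EAT, and lower in IAT than in EAT adipocytes, at -0.82 ± 0.11 (adjusted p = 7.19e-05).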

How the data were processed

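RNA sequencing values were taken for 12 libraries, 3 in each of 4 groups. The authors deposited 1 table per library with FPKM and its confidence bounds per gene, per the file headers. TopHat, Cufflinks and the mouse build GRCm38 (mm10) are named, per the submitters' processing notes, with no version. Read length, strand use and annotation are not given in the sources used here. The tables hold no counts. The fragments behind a value were estimated from its upper bound, and 60.5% to 64.8% of low values per library came to whole fragments within 0.02, too few for a count test. Of the features, 9 with a failed estimate were left out, none of them a member.

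Values were taken as log2(FPKM + 1), where a fold change of a low gene is understated. Features were kept when 3 or more libraries reached 1 FPKM, and these 13175 were fitted with limma 3.58.1 (lmFit, eBayes with trend) in R 4.3.3, on 4 group means with no block. Tests were two-sided, with Benjamini-Hochberg adjustment per contrast and a threshold of 0.05. The same code was tested on simulated data. Errors are SD for levels and SE for log2 differences. Ratios of members were compared by exact permutation. Tables, motif matches and figures were made with Python 3.11.15, pandas 2.3.3, NumPy 2.4.6 and matplotlib 3.10.9.

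Library values are given for members with a mean of at least 20 FPKM in a group and for the 5 called members with the largest difference in each direction of each comparison. Slc25a48 was added after its values were seen. The members and lists were chosen with earlier results of these data known. Values of 1 member, which stays in the counts over members, are not reported here. Alternatives were a pseudocount of 0.1, no filter, a filter on the mean, rescaling by quantiles, by median-of-ratios or to TPM, fits limited to the groups compared, eBayes without trend, array weights, a replicate block, and leaving out each library.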

Additional observations from a re-analysis of the deposited data

Results flagged for a closer look

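For 13 members the depot difference (IAT minus EAT, on log2(FPKM + 1)) in adipocytes differed from that in SVCs, by limma's test of the difference between both contrasts, adjusted over 13175 features. It was more positive in adipocytes for Slc25a25 (0.93), Slc25a1 (0.60), Slc25a10 (0.53), Slc25a35 (0.45), Slc25a20 (0.44), Slc25a5 (0.43) and Slc25a13 (0.41). It was more negative in adipocytes for Slc25a24 (-0.86), Slc25a12 (-0.65), Slc25a29 (-0.58), Slc25a45 (-0.36), Slc25a40 (-0.36) and Slc25a17 (-0.35). Slc25a1, Slc25a12, Slc25a20, Slc25a24, Slc25a25 and Slc25a29 kept the call under every alternative that gave a value.

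The other 7 lost it under some. Slc25a5 was not called without replicate 2 or 3 of EAT adipocytes, 1 or 2 of IAT adipocytes, 2 or 3 of EAT SVCs, or 2 or 3 of IAT SVCs (adjusted p 0.0535 to 0.0673). Slc25a35 was called only without EAT adipocyte replicate 2 or 3 or IAT SVC replicate 1 among the libraries left out in turn (adjusted p up to 0.122 without another). It was also lost with the replicate block (0.0728), a pseudocount of 0.1 (0.165), no filter (0.0687), a filter on the mean (0.0527), TPM (0.165) and quantile scaling (0.123). Slc25a45 was not called without EAT adipocyte replicate 2 or 3, IAT adipocyte replicate 1 or 3, EAT SVC replicate 1 or 3, or IAT SVC replicate 1 or 2 (0.0522 to 0.0819). Slc25a40 was not called without IAT adipocyte replicate 1 (0.0562), EAT SVC replicate 2 (0.0549) or IAT SVC replicate 3 (0.0540), and Slc25a17 without IAT adipocyte replicate 2 (0.0502). Slc25a10 was not called under quantile scaling (0.0516), and Slc25a13 under a pseudocount of 0.1 (0.380) or quantile scaling (0.0950). Slc25a13 was at most 0.225 FPKM in adipocytes and passed the filter through EAT SVC libraries alone, so its value is no support for a difference. On the TPM scale Slc25a45 (0.126), Slc25a40 (0.0867) and Slc25a17 (0.104) were not called, nor under quantile scaling Slc25a45 (0.0692) and Slc25a40 (0.0666).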

How the results depend on the processing

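Of 100 calls of members over the 5 comparisons, 71 kept direction and call under every alternative that gave a value, and 29 did not. Over 2161 alternative values, 112 lost a call and 9 turned round, in 4 genes. In EAT adipocytes against SVCs these were Slc25a14 (quantile 0.024), Slc25a32 (median-of-ratios 0.0036, quantile 0.18) and Slc25a38 (0.12 and 0.063). In IAT they were Slc25a38 (0.10 and 0.0067) and Slc25a40 (0.070 and 0.33). Of the values that turned, only the 0.33 of Slc25a40 was itself called (limma adjusted p = 0.00252).

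In SVCs, 2 members were called higher in IAT, and 0 on the TPM scale, 5 under median-of-ratios, 8 under quantile scaling, 5 with array weights and 0 to 4 with 1 library left out. The 5 called lower became 9, 3, 3, 10 and 2 to 8 in the same order. Of the 9 on the TPM scale, 1 was not tested in the main fit. The 10 lower in EAT adipocytes became 6 and the 11 lower in IAT adipocytes 7 under either scaling. For the difference between fractions, the 7 higher became 4 under quantile scaling, and 4 to 8 with 1 library left out, being 4 without EAT SVC replicate 2 or 3, and the 6 lower became 3 on the TPM scale. The cause was not tested. A fit on the compared groups gives no value for that difference.

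Whether same-numbered libraries share a mouse or a day is not in the labels. Correlations of same-numbered deviations ran from -0.31 to 0.37, which with 3 libraries per group cannot decide it. The highest, 0.37 and 0.35, were of replicates 1 and 3 between EAT and IAT adipocytes, with -0.08 for replicate 2. With a replicate block the counts of higher and lower were 6 and 9 for the depots in adipocytes, 3 and 5 in SVCs, 21 and 11 for the fractions in IAT, 23 and 10 in EAT, and 6 and 6 for the difference. The depth is that of estimated fragments, so the filter hides members under 1 FPKM, such as Slc25a48.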
